A study of Mus musculus with 4 samples.

Results

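The comparison described here is that of VE-cadherin-positive cells positive for a Runx1 reporter with VE-cadherin-positive cells negative for it. Mouse embryonic stem (ES) cells carrying the Venus reporter gene in 1 Runx1 allele, the heterozygous Runx1(Venus/+) line derived from CCE cells, were differentiated for 6 days on OP9 bone marrow stromal cells, sorted by flow cytometry, and profiled with 1 Affymetrix Mouse Genome 430 2.0 array per population. Population 2 was positive for Runx1-Venus and VE-cadherin and negative for CD41. Population 1 was negative for Runx1-Venus and positive for VE-cadherin and Flk1. The study regards population 1 as committed to endothelium. It describes population 2 as lateral mesodermal progenitors able to form both endothelium and blood. These 2 samples were taken by their sort labels from the 4 populations of the series, and all genes were described across them: 18194 genes had a probe set with a single symbol, and 8577 of them had a signal above 100 in population 1 or 2. Populations 3 (positive for Runx1-Venus, VE-cadherin and CD41) and 4 (positive for Runx1-Venus and CD41, negative for VE-cadherin) are quoted only for reference. All 4 arrays share the ES line, so cells of both populations carried the reporter in a Runx1 allele, where it reads the proximal promoter. Flk1 was part of the gate for population 1 and is not named in the label of population 2.

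Definitive blood arises from haemogenic endothelium, a small part of the embryonic endothelium whose cells round up, lose their junctions and enter the circulation as haematopoietic cells. Runx1, the DNA-binding subunit of core binding factor, is needed for this step and acts with Cbfb. Scl (encoded by Tal1), Gata2 and Fli1 form a triad of factors that is already active in the endothelial precursor. VE-cadherin (Cdh5) and Flk1 (Kdr) mark endothelium, and CD41 (Itga2b) is among the first surface proteins of the emerging blood cell.

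Values are MAS5 probe set signals on a linear scale. The brightest probe set stood for each gene. Signals below 100 were set to 100 before dividing, and folds that rest on such a signal are bounds, written as "at least". With a single array per population there was no replicate, no test was possible, and every fold below is a difference between those arrays. As a measure of how well different probe sets of a gene agree, the main probe set was paired with every further one above 100 of its gene, and over 5695 pairs the log2 ratios differed by a median of 0.182. The hybridisation controls, added after labelling, gave a median log2 ratio (population 2 over 1) of 0.07 over 18 probe sets, and the poly-A controls, added before labelling, gave -0.17 over 24. The ratio of 3′ to 5′ probe sets was 1.33 and 1.38 for Actb and 0.884 and 0.847 for Gapdh in populations 1 and 2.

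Most genes differed little between the 2 VE-cadherin-positive populations. Of the 8577 genes, 76.6% lay within 1.5-fold, the median log2 ratio was 0.05 and the quartiles were -0.27 and 0.34. The number of genes above 100 was 8203 in population 1 and 8097 in population 2, of which 7723 were above 100 in both. In population 2, 276 genes (3.22%) were higher by at least 2-fold, 397 (4.63%) were lower by at least 2-fold, and 5 (0.0583%) and 63 (0.735%) reached 4-fold in these directions. The tail of lower genes was the longer, reaching a log2 ratio of -4.12 against 2.57 for higher genes. The folds are bounds for 30 of the higher and 75 of the lower genes.

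**Figure D1:**
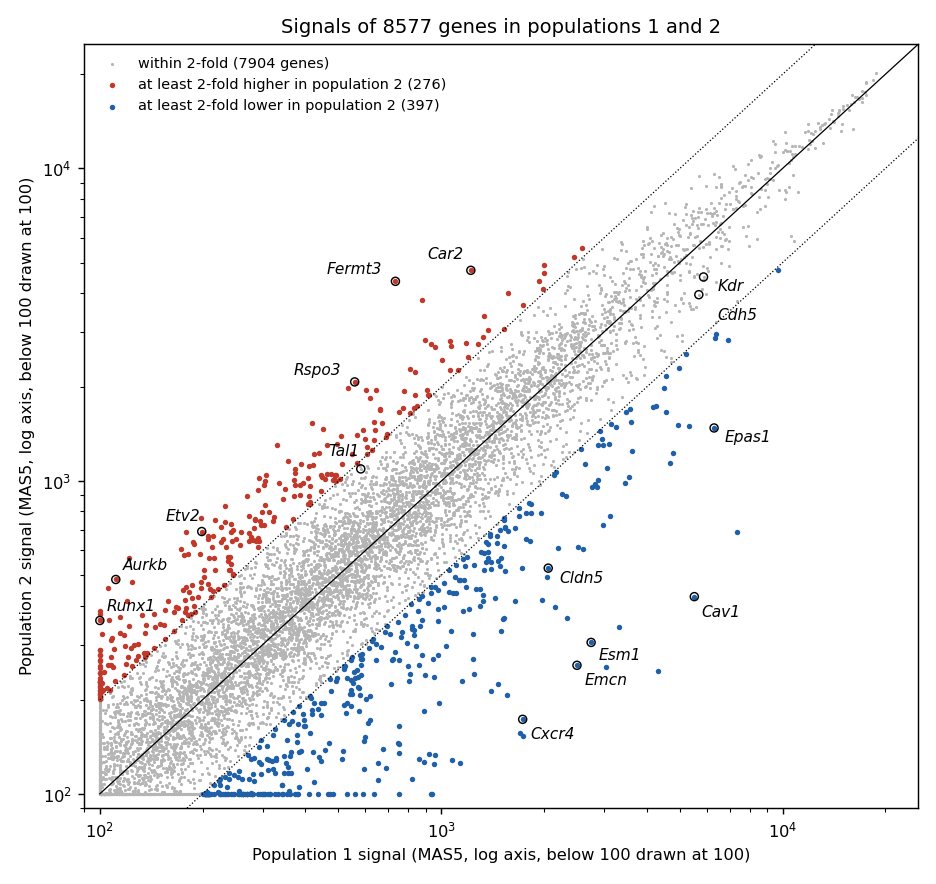
Signals of 8577 genes in population 1 (horizontal axis) and population 2 (vertical axis), both on log axes with values below 100 drawn at 100; each point is a gene, the solid line marks equal signals and the dotted lines 2-fold differences. The points below the lower dotted line (397 genes) reach farther from equality than those above the upper line (276 genes), while Kdr and Cdh5 lie between the lines.

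Other probe sets of the same genes mostly went the same way. Of the 276 higher genes, 111 had another probe set above 100, and in 108 of these all were higher in population 2, by at least 2-fold in 46. Of the 397 lower genes, 173 had another probe set above 100, all lower in 172, and all at least 2-fold lower in 85. Genes at the limit were Psat1 with a log2 ratio of 1.002 just inside and Wdhd1 with 0.9998 just outside, and Ppm1h with -1.001 inside and Dok4 with -0.9993 outside. The split between higher and lower genes depended on how the arrays were scaled. With the arrays set equal on their poly-A controls, 564 genes were higher and 251 lower, which puts the higher genes at 69.2% of those past 2-fold in place of 41.0%. With the arrays centred on the median of all probe sets, a setting chosen after the data were seen, the numbers were 462 and 282. At 4-fold these settings gave 21 and 47, and 14 and 50. List medians below can be read against the median of 0.05 over all genes.

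Of the 4 genes used for sorting, Runx1 alone passed 2-fold, in the direction the gates had chosen. Its signals were 55.3 in population 1 and 358 in population 2, at least 3.58-fold higher, followed by 1297 in population 3 and 2440.2 in population 4. Only 1 other Runx1 probe set exceeded 100, with a log2 ratio of 0.45. Itga2b, the CD41 chain, had 667 and 1135, 1.70-fold higher in population 2 although that population was sorted as CD41-negative, and 2418 in population 3. Cdh5 had 5683 and 3946 and Kdr had 5866 and 4496, with log2 ratios of -0.53 and -0.38, so both endothelial markers were slightly lower in population 2.

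Marker genes of cell types were read in both populations, and some of them were part of the gates. Cdh5 was a gate gene of populations 1 and 2, Kdr of population 1, and Itga2b, a blood marker, of population 2. Their signals, which are part of the sums below, therefore cannot test the sort. All 10 endothelial markers (Pecam1, Cdh5, Tek, Tie1, Kdr, Cldn5, Emcn, Cd34, Egfl7 and Erg) were above 100 in both populations, with summed signals of 27879 and 18380. Of 10 blood markers, 3 were above 100 in population 1 and 4 in population 2, with sums of 1484 and 1830, and Ptprc (CD45), Spn, Vav1, Spi1, Gfi1b and Coro1a were below 100 in both. Of 7 erythroid markers, none was above 100 in population 1 and only Hbb-bh1 in population 2. Of 10 stromal markers of the kind OP9 cells express, 5 were above 100 in population 1 and 3 in population 2, with sums of 3432 and 2042, while Col1a1, Pdgfra, Dcn, Lum and Thy1 were below 100 in both. None of 6 markers of undifferentiated ES cells reached 100. In bulk samples such as these, fewer cells of a type and less RNA per cell cannot be told apart.

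**Figure D2:**
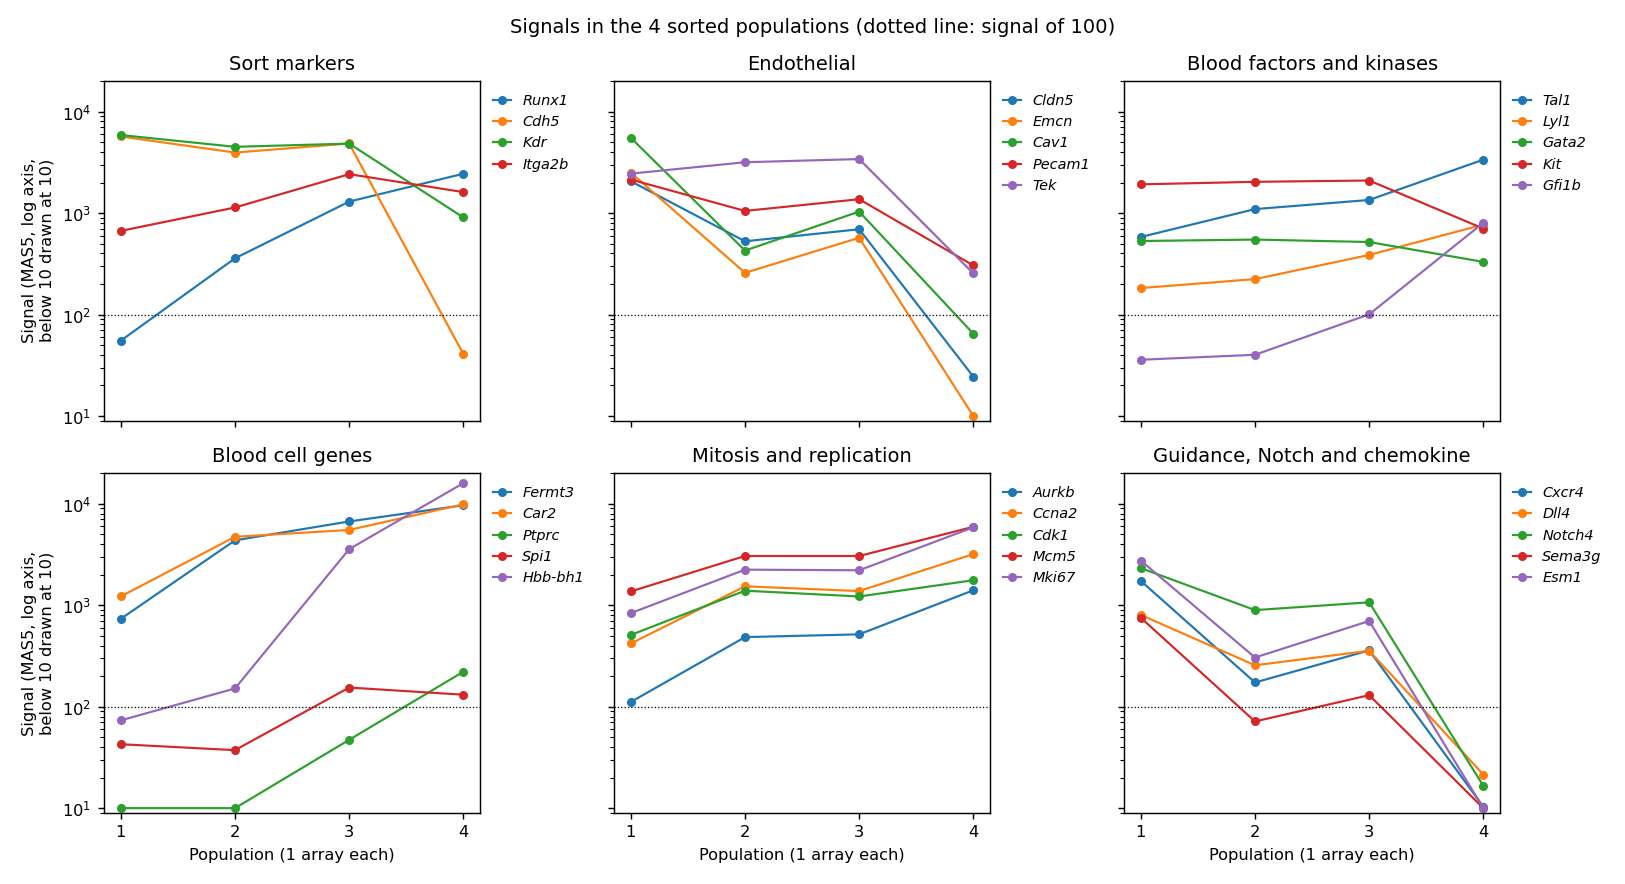
Signals of 29 genes in 4 sorted populations (1 array each, joined by lines for reading only; log axis, values below 10 drawn at 10; the dotted line marks a signal of 100). Between populations 1 and 2, Runx1, Fermt3, Car2 and the mitosis genes were higher and the endothelial, guidance and Notch genes were lower, whereas Gata2, Kit and Tek stayed within 1.5-fold and Ptprc, Spi1 and Gfi1b stayed below 100.

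Blood cell genes that were higher in population 2 along with Runx1 included Fermt3 and Car2. The largest fold in that direction belonged to Fermt3, which encodes kindlin-3, the integrin activator of blood cells. Its signal was 734 in population 1 and 4355 in population 2, 5.93-fold higher, with 6684 and 9654 in populations 3 and 4, and 2 further probe sets gave log2 ratios of 1.96 and 2.81. Car2, a carbonic anhydrase abundant in erythroid cells, had 1221 and 4722 (3.87-fold). Of the 36 haematopoietic transcription factors on the array, 21 were above 100, with 2 at least 2-fold higher, 1 at least 2-fold lower and a median log2 ratio of 0.16 against 0.05 over all genes. These counts are 9.52% and 4.76% of the 21, against 3.22% and 4.63% of all genes. Besides Runx1, the other higher factor was Ikzf2, of the Ikaros family, with 136 and 273 (2.01-fold). The lower factor was Mecom, which encodes Evi1, with 4503 and 1985 (2.27-fold).

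On the main probe sets the triad differed within itself. Tal1 had 581 in population 1 and 1094 in population 2 (1.88-fold), Fli1 had 2155 and 2401 (1.11-fold) and Gata2 had 530.3 and 548 (1.03-fold). The other probe sets gave larger log2 ratios of 0.40 for Fli1 and 0.56 for Gata2, so the contrast with Tal1 depends on the probe set. Cbfb, the partner of Runx1, had 2016 and 1995. Apart from Tal1, whose value rests on a single probe set, these factors lay within 1.5-fold. Gfi1, a Runx1-responsive repressor, had 15.1 and 108 and just exceeded 100, while its paralogue Gfi1b had 35.9 and 40.1, and Gata1, the erythroid factor, had 15.1 and 26.9.

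Genes of mature blood lineages were mostly near or below background. Of the 31 erythroid genes on the array, 12 were above 100, 3 were at least 2-fold higher (Car2, Tfrc and Gypc), none was lower by that much, and the median was 0.39. For comparison, 3.22% of all genes were higher and 4.63% lower by 2-fold. Tfrc, the transferrin receptor, had 907 and 1961, and Gypc, a glycophorin, had 211 and 427. Haem synthesis enzymes stayed under 2-fold: Fech had 397 and 424 and Urod had 805 and 799.8. The embryonic globin Hbb-bh1 had 73.3 and 151, at least 1.51-fold higher, and was the only 1 of 6 globins on the array above 100. Of 46 leukocyte signalling genes on the array, 15 were above 100, 1 was higher (Fermt3) and 2 were lower: Lcp2, the adaptor SLP-76, had 600.4 and 202 (2.98-fold) and Lcp1, the actin bundler L-plastin, had 1391 and 677 (2.06-fold). Of 9 megakaryocyte genes above 100, 7 were lower, 2 by at least 2-fold (22.2% against 4.63% of all genes), and none was 2-fold higher. Clec1b, the CLEC-2 receptor of platelets, had 2514 and 616 (4.08-fold lower), returning to 2627 in population 3. Of 29 myeloid genes on the array 4 were above 100 and none passed 2-fold.

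**Figure D3:**
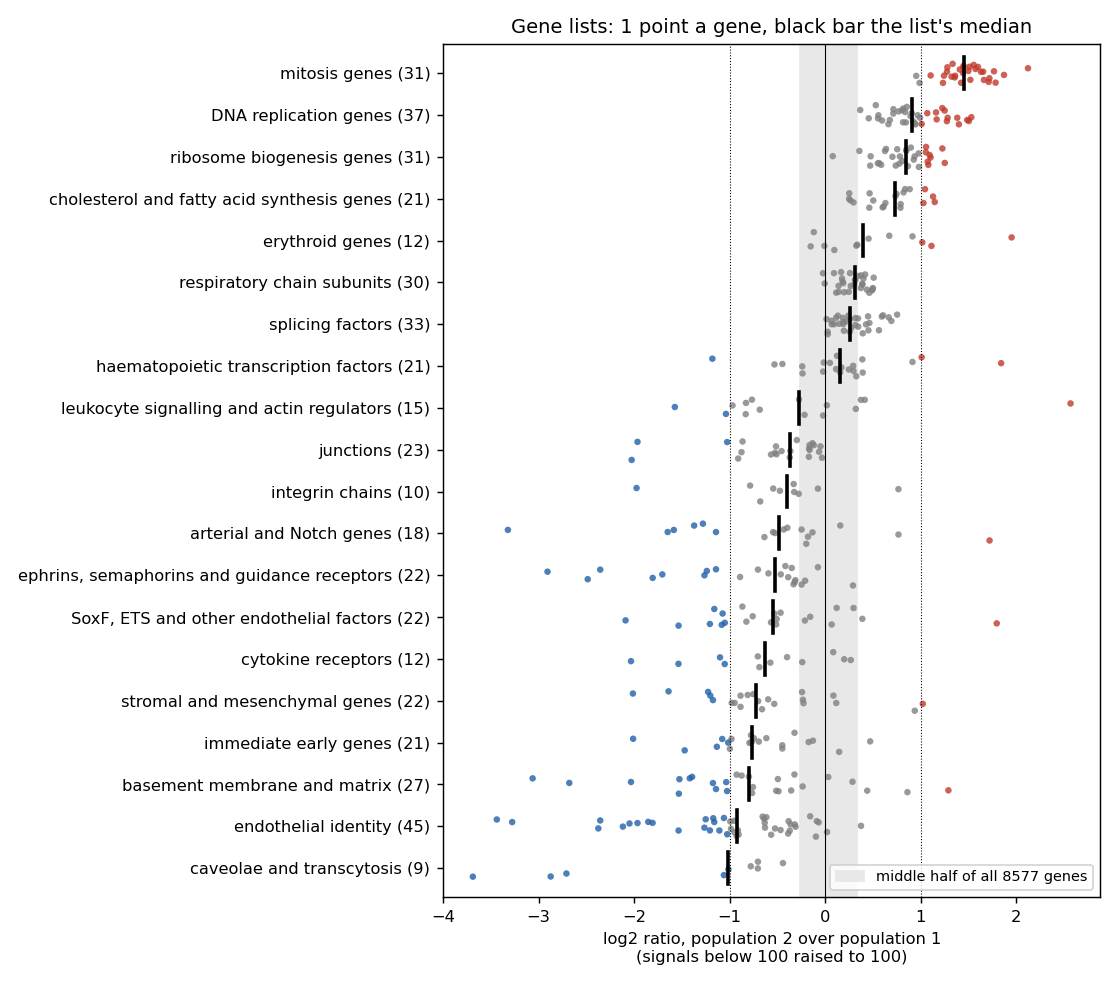
Log2 ratio of population 2 over population 1 for the members above 100 of 20 gene lists (number of such genes in brackets); each point is a gene, red at least 2-fold higher, blue at least 2-fold lower, the black bar is the list's median and the grey band holds the middle 50% of all 8577 genes. Mitosis genes lie almost wholly above a log2 ratio of 1, with a median of 1.45, and the endothelial list centres on -0.93.

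Among the gene lists, the genes of cell division had the largest share of members at least 2-fold higher in population 2. All 31 mitosis genes above 100 were higher, 29 of them by at least 2-fold, with a median log2 ratio of 1.45 and a range of 0.95 to 2.12, whereas 3.22% of all genes were 2-fold higher. Aurkb, the kinase of the chromosomal passenger complex, had 111 in population 1 and 485 in population 2 (4.35-fold). Ccna2 (cyclin A2) had 419 and 1534 (3.66-fold), and Kif20a, a kinesin of cytokinesis, had 188 and 639.5 (3.40-fold). Aurka, a kinase of the spindle poles, had 304 and 1000.3, and Mad2l1, of the spindle checkpoint, had 449.6 and 1472. Among the brightest members, Cdc20, an activator of the anaphase-promoting complex, had 2584 and 5551 (2.15-fold), Incenp had 1003 and 2432 and Top2a, the topoisomerase that untangles chromosomes, had 894 and 2829. Cenpf, a centromere protein, had 218 and 749.6 on its main probe set, but another one gave a log2 ratio of 0.003. The count past 2-fold depended on the choice of probe set: with the mean over a gene's probe sets it was 19 of 30, and without shared probe sets 23 of 25, with every one of these genes higher in population 2. With signals raised to 200 it was 26 of 31.

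Further genes of the kinetochore and of condensin stood among the largest folds. Kntc1, a kinetochore component, had 122 and 566 (4.65-fold), Spc24 of the Ndc80 complex had 173 and 607 (3.51-fold), and Ncapg, a condensin subunit, had 120 and 413 (3.44-fold). Lrr1, a gene of neither group, was also among the largest folds with 106 and 456 (4.32-fold), and a second probe set gave a log2 ratio of 0.38. These genes were not on the mitosis list.

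DNA replication genes were higher by less. All 37 of those above 100 were higher, 13 by at least 2-fold (35.1% against 3.22% of all genes). The median was 0.91 with a range of 0.37 to 1.53. Gins1, of the replicative helicase complex, had 213 and 616 (2.89-fold), Cdc6, a helicase loader, had 245 and 695 (2.84-fold), and Rrm2, a ribonucleotide reductase subunit, had 958 and 2683 (2.80-fold). The sliding clamp Pcna had 4014 and 6412 (1.60-fold) and the helicase subunit Mcm7 had 1940.2 and 4353 (2.24-fold). Together the mitosis and replication lists held 42 (15.2%) of the 276 higher genes, and 201 (72.8%) were on none of the lists.

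None of the 19 regulators of the G1 phase above 100 was 2-fold higher, and their median was 0.36. Cdkn1c, the inhibitor p57, had 3451 in population 1 and 989 in population 2 (3.49-fold lower), and Cdkn2b, the inhibitor p15, had 199.5 and 75.9 (a log2 ratio of -0.997 with the lower signal raised to 100). Rbl1, the Rb relative p107, had 128 and 244 (1.90-fold higher), whereas Cdk4 (2499 and 3211) and Cdkn1a (2497 and 2035) lay within 1.5-fold.

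Promoters of the mitosis genes shared a short element. The windows searched run from 250 bases before to 50 bases after each start in the RefSeq promoters of assembly GRCm38.p6, which hold 26 of these 31 genes in 27 windows. The cell cycle homology region (CHR), searched as TTTGAA on either strand and chosen after the data were seen, was present in 20 of the 27 windows (74.1%). The shares were 11.7% for the 9038 windows of all genes above 100, 30.6% for the genes at least 2-fold higher and 11.4% for those at least 2-fold lower, and 17.9% for all 32851 windows. CCAAT, on either strand and chosen at the same time, was in 74.1% of the mitosis windows, 37.5% of those of all genes above 100, 53.0% of those of higher genes and 31.3% of those of lower genes. Examples of the CHR with 10 bases to each side are printed on the strand of the gene, with the element in capitals (TTTGAA, or TTCAAA where it lies on the other strand). The examples were drawn from 10 of the genes, in which an element lay at least 10 bases before the start. A chromosome was left out of that search, so 10 is not a full count. The distance from the element's end to the start was 12 to 161 bases, and nearer and farther examples are shown.
Cdc20, chr4:118437346-118437371, minus strand, element ending 12 bases before the start: acagttgggtTTTGAAggagccaatg
Cdk1, chr10:69352968-69352993, minus strand, 65 bases before the start: gattggctccTTTGAAcgtctacgtg
Top2a, chr11:99024197-99024222, minus strand, 17 bases before the start: tagataaaggTTCAAAtgaaactagg
Prc1, chr7:80294436-80294461, plus strand, 24 bases before the start: tctggctcggTTTGAAttccgcgggg
Ube2c, chr2:164769890-164769915, plus strand, 23 bases before the start: agggttgcaaTTCAAAcgcgggcggc
Mki67, chr7:135716462-135716487, minus strand, 92 bases before the start: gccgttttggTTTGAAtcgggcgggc
Ccnb2, chr9:70421706-70421731, minus strand, 161 bases before the start: gggactagaaTTTGAAaataagactg
The signals of these genes were 2584 and 5551 for Cdc20, 509 and 1390 for the mitotic kinase gene Cdk1, 894 and 2829 for Top2a, 229 and 652 for Prc1, a cross-linker of the central spindle, 810 and 2290 for Ube2c, a ubiquitin-conjugating enzyme of mitosis, 836 and 2240 for Mki67, the proliferation antigen, and 395 and 986 for Ccnb2, a mitotic cyclin.

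The Runx motif showed no such difference in share. TGTGGT or TGCGGT, on either strand, was in 20.7% of the windows of all genes above 100, 22.0% of the 268 windows of higher genes, 18.7% of the 438 windows of lower genes and 22.4% of all windows. Named genes that hold it occur on both sides, as the following windows show, with the motif in capitals (ACCACA where it lies on the other strand).
Fermt3, chr19:7019478-7019503, minus strand, 18 bases before the start: cctcatttccTGTGGTaacaaaagca
Slc39a8, chr3:135825129-135825154, plus strand, 134 bases before the start: gtccccaaacACCACAttcactttac
Prss23, chr7:89527324-89527349, minus strand, 146 bases before the start: tgttaacagtTGTGGTttaggtcgtg
S100a16, chr3:90540898-90540923, plus strand, 232 bases before the start: ctagaaagcaTGTGGTgaggacagat
Fermt3 and Slc39a8, a zinc and manganese transporter gene with signals of 198 and 764 (3.85-fold), were higher in population 2. Prss23, a serine protease gene with 3325 and 342 (9.72-fold), and S100a16, a calcium-binding protein gene with 1739 and 153 (11.4-fold), were lower. These matches describe letters in a window, and binding to them was not measured on the arrays.

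Genes for making ribosomes were higher in population 2 as a group. All 31 ribosome biogenesis genes above 100 were higher, 8 by at least 2-fold (25.8% against 3.22% of all genes), with a median of 0.85. Wdr12, which processes pre-ribosomal RNA, had 278 and 661 (2.38-fold), Dkc1 (dyskerin, a pseudouridine synthase) had 1183 and 2766 (2.34-fold), and Nop56 had 1278 and 2743 (2.15-fold). Npm1, the brightest member, had 15008 and 15840.0, the smallest difference on the list, near the top of the signal range of the arrays. Sterol and fatty acid synthesis showed the same arrangement: all 21 genes above 100 were higher, and the median was 0.73. Of the 21, 4 were at least 2-fold higher (19.05% against 3.22% of all genes). Lss, lanosterol synthase, had 512 and 1132 (2.21-fold), Idi1 had 1326 and 2897 (2.19-fold), Dhcr7, which makes cholesterol in the last step, had 367 and 756 (2.06-fold) and Mvk, mevalonate kinase, had 185 and 376 (2.04-fold).

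Differences in energy metabolism and RNA processing were small. Of 30 respiratory chain subunits above 100, 28 were higher but none by 2-fold, and the median was 0.31. Cyc1, cytochrome c1, had 1427 and 2027, the largest ratio of these. All 33 splicing factors were higher, with a median of 0.26 and none past 2-fold. The smallest log2 ratio of these was 0.013, less than the median of 0.07 of the hybridisation controls, so its direction depends on the scaling. Of 16 genes of glycolysis, only Hk2, hexokinase 2, passed 2-fold, with 749.9 and 1658 (2.21-fold). Maintenance and de novo DNA methyltransferases were each under 2-fold higher: Dnmt1 had 794 and 1495, Dnmt3a had 510.5 and 983, and Dnmt3b had 603 and 1068. For comparison, 12 housekeeping genes had a median of 0.12, with Actb at 14615 and 15357.

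Etv2, Lin28a, Rspo3 and Cyp26a1 were among the 20 largest folds in the direction of population 2. Etv2, the ETS factor that starts the endothelial and blood programme in mesoderm, had 199 in population 1 and 689.9 in population 2 (3.47-fold), and 439.6 in population 3. Lin28a, an RNA-binding repressor of let-7 processing, had 293 and 1023 (3.49-fold). Rspo3, an R-spondin that enhances Wnt signals, had 558 and 2076 (3.72-fold). Cyp26a1, the enzyme that breaks down retinoic acid, had 533 and 1990.4 (3.74-fold). The lists nearest to these genes showed no common direction. Of 5 early mesoderm genes above 100, 3 were higher and 2 lower, the median was 0.18, and Etv2 was the only 1 past 2-fold. Of 5 pluripotency genes above 100, 2 were higher and 3 lower, the median was -0.36, and only Lin28a passed 2-fold.

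Other higher genes encode signals and surface proteins. Bmp2, a ligand of the bone morphogenetic protein family, had 602 and 1953 (3.25-fold) and 4141 in population 3, and Bmper, which binds such ligands outside the cell, had 101 and 324 (3.20-fold). Notch2 had 176 and 579.97 (3.29-fold), Ncam1, a neural cell adhesion molecule, had 372 and 1094 (2.94-fold), Tspan12, a tetraspanin of Norrin signalling, had 303 and 972 (3.21-fold), and Ptgis, prostacyclin synthase, had 299 and 797 (2.67-fold). Fzd7, a Wnt receptor, had 194 and 425 (2.19-fold), and Hs6st2, a heparan sulphate sulphotransferase, had 306 and 1043 (3.41-fold). Vcan, the proteoglycan versican, had 202 and 493 (2.44-fold) and was the only 1 of 27 matrix genes 2-fold higher. Mtm1, a phosphoinositide phosphatase, had 880.4 and 3789 on its main probe set, but others ranged from a log2 ratio of -0.31 to 2.21, so its direction is uncertain.

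**Figure D4:**
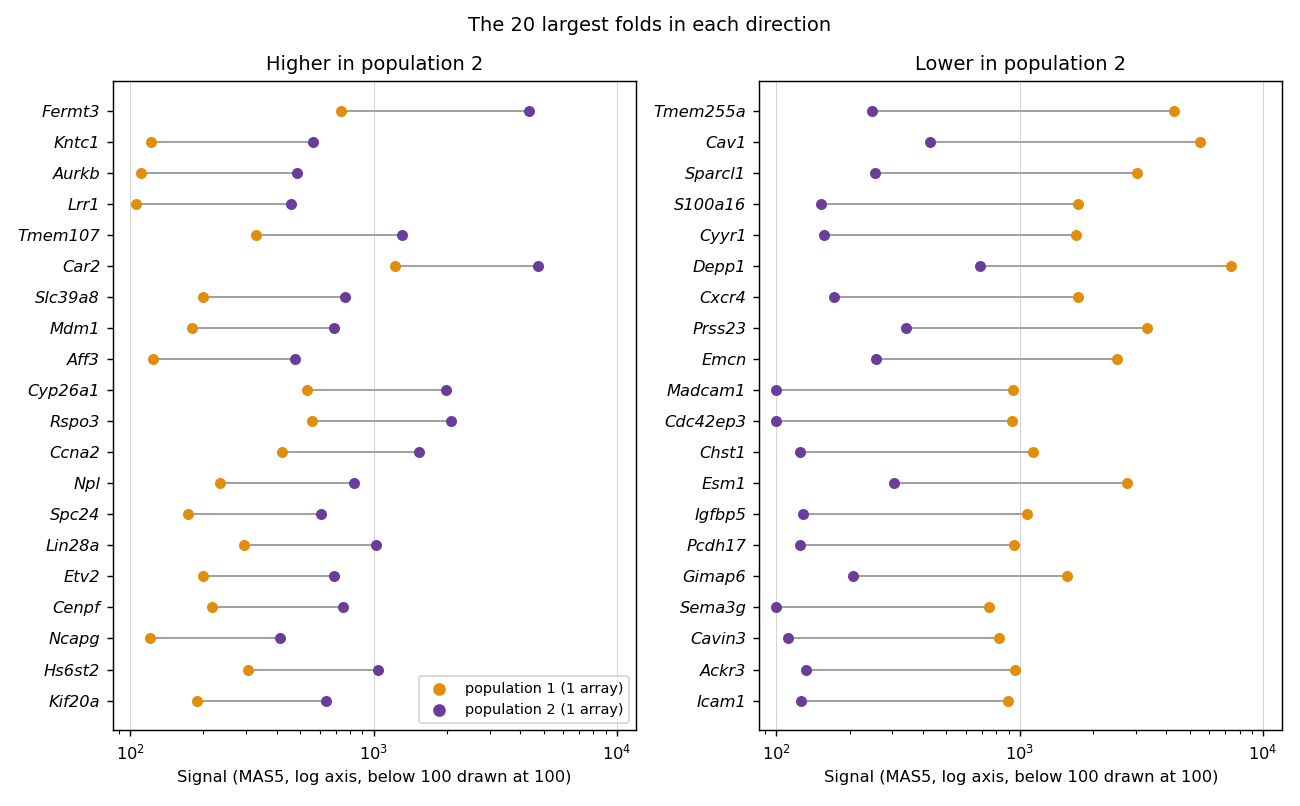
Signals in population 1 (orange) and population 2 (purple) of the 20 genes with the largest fold in each direction, among genes with a signal of at least 400 in the higher population and all other probe sets above 100 going the same way (log axis, signals below 100 drawn at 100). The higher genes span 3.40-fold to 5.93-fold and the lower genes 7.05-fold to 17.4-fold.

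Endothelial genes were lower in population 2, with large differences among them. Of 45 endothelial identity genes, all above 100, 43 were lower, 18 of them by at least 2-fold (40.0% against 4.63% of all genes), and the median was -0.93. The count past 2-fold was 12 with scaling on the poly-A controls and 22 with scaling on the hybridisation controls. Cyyr1 had 1704 in population 1 and 157 in population 2 (10.8-fold lower), and Emcn, the sialomucin endomucin, had 2498 and 258 (9.70-fold). Gpihbp1, which holds lipoprotein lipase on the capillary wall, had 651 and 125 (5.19-fold), Robo4, an endothelial guidance receptor, had 747 and 146 (5.12-fold), Tm4sf1 had 434 and 56.8 (at least 4.34-fold) and Adgrf5, an adhesion receptor, had 2047 and 494 (4.14-fold). By contrast the receptor gene Tek had 2446 and 3169 and Rhoj, a small GTPase, had 3443 and 3488, the only members that were higher. Erg and Egfl7 were 1.12-fold and 1.07-fold lower. The summed signal of the stromal markers was also lower in population 2 (2042 against 3432), and its part in these differences was not tested.

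Genes of caveolae were among the lowest. All 9 above 100 were lower, 5 by at least 2-fold (55.6% against 4.63% of all genes), with a median of -1.01. Cav1, the coat protein of caveolae, had 5513 and 427 (12.9-fold), Cav2 had 1471 and 225 (6.54-fold) and Cavin3 had 820.01 and 112 (7.33-fold). Cavin1, which is needed for caveolae to form, had 3483 and 2137 (1.63-fold), so the members differed widely. Plvap, the diaphragm protein, had 3485 and 1670 (2.09-fold).

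Junction genes, in contrast, were mostly lower by little. All 23 were lower, 3 by at least 2-fold (13.04% against 4.63% of all genes), and the median was -0.37. Gja1 (connexin 43) had 4672 and 1146 (4.08-fold), the tight junction gene Cldn5 had 2058 and 527 (3.91-fold) and Pecam1 had 2139 and 1050 (2.04-fold). The catenins Ctnnb1 (10723 and 9517) and Ctnna1 (6478 and 6257) and the scaffold Tjp1 (5205 and 4976) were within 1.5-fold, and their small differences changed sign under poly-A scaling. The other 2 probe sets of Ctnna1 above 100 were higher, with log2 ratios of 0.058 and 0.323, so its direction is uncertain.

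Arterial genes and Notch components were mostly lower. Of 18 above 100, 15 were lower and 3 higher, 6 were at least 2-fold lower and 1, Notch2, was higher, with a median of -0.48. The 6 lower and 1 higher are 33.3% and 5.56% of the 18, against 4.63% and 3.22% of all genes. The chemokine receptor Cxcr4 had 1732 and 173 (10.0-fold lower). The ligand Dll4 had 802 and 256 (3.14-fold), the glycosyltransferase Mfng had 1155 and 385 (a log2 ratio of -1.59), the receptor Notch4 had 2317 and 894 (2.59-fold) and the ligand Jag1 had 818 and 337 (2.43-fold). Notch1 had 5335 and 3706 (1.44-fold), the target Hey1 had 5320 and 4694, and Efnb2, the arterial ephrin, had 6961 and 5860.3. Other probe sets gave log2 ratios of -0.97 to -0.43 for Efnb2 and -0.46 for Jag1, so the order of Efnb2 and Jag1 depends on the probe set. The Notch receptors thus differed in direction, with Notch2 higher and Notch4 lower.

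Among 13 venous and lymphatic genes, 4 were lower by 2-fold (30.8% against 4.63% of all genes) and the median was -0.68. Besides Emcn, these were the chemokine scavenger Ackr3 with 959 and 133 (7.22-fold), the scavenger receptor Stab1 with 978 and 357 (2.74-fold) and Stab2 with 203 and 18.7 (at least 2.03-fold). Aplnr, the apelin receptor, had 3129 and 4492 (1.44-fold higher). Lyve1 had 366 and 227 and reached 1504 in population 3.

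Of 22 endothelial transcription factors above 100, 7 were at least 2-fold lower (31.8% against 4.63% of all genes). Only Etv2 was 2-fold higher (4.55% against 3.22%), and the median was -0.55. Epas1 (Hif2a) had 6299 and 1479 (4.26-fold), the SoxF genes Sox17 and Sox18 had 2770.2 and 955 (2.90-fold) and 1367 and 592 (2.31-fold), and the repressor Bcl6b had 914 and 408 (2.24-fold). Ets1 had 6954 and 4887 (1.42-fold). Epas1 was lower while Hif1a had 3005 and 2726, and the 20 hypoxia-responsive genes had a median of -0.07. Depp1, a FoxO and hypoxia target, had 7373 and 686 (10.8-fold lower).

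Guidance genes were lower in 21 of 22 cases, 8 by at least 2-fold (36.4% against 4.63% of all genes), with a median of -0.53. Sema3g, a secreted semaphorin, had 750.5 and 71.5 (at least 7.51-fold), Sema7a had 561 and 93.6 (at least 5.61-fold), Robo1, a Slit receptor, had 976 and 279 (3.50-fold) and Efna1 had 4934 and 1512 (3.26-fold). Plxnd1, the semaphorin receptor of endothelium, had 5859 and 4386 (1.34-fold). Esm1, the tip cell proteoglycan endocan, was on no list and had 2748 and 305 (9.01-fold). Nrp1, a co-receptor for VEGF and semaphorins, had 4256 and 1734 (2.45-fold), and Vegfc had 5059 and 2799 (1.81-fold).

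Matrix and adhesion genes were mostly lower. Of 27 basement membrane and matrix genes above 100, 22 were lower, 11 by at least 2-fold (40.7% against 4.63% of all genes). The median was -0.80. Igfbp5, which binds insulin-like growth factors, had 1073 and 128 (8.36-fold), Nid2 (nidogen 2) had 2334 and 364 (6.41-fold), Lama4, the laminin chain of vessels, had 2969 and 725 (4.09-fold) and Timp3, a metalloproteinase inhibitor, had 3615 and 1249 (2.89-fold). Col4a1, the collagen IV chain, had 10596 and 6086 (1.74-fold), and Fn1, fibronectin, had 8134 and 8311. Of 10 integrin chains above 100, Itga1, a collagen receptor chain, was lower by 3.94-fold (597 and 152), and Itga2b was the only 1 that was higher. Itga1 was the only chain at least 2-fold lower (10.0% against 4.63% of all genes). Of 15 focal adhesion genes, 14 were lower and Fermt3 was higher. Its relative Fermt2 (kindlin-2), the form of other tissues, had 3709 and 2777 (1.34-fold lower), and Parvb had 750.3 and 165 (4.55-fold lower).

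Stromal and mesenchymal genes were mostly lower. Of 22 above 100, 18 were lower, 5 by at least 2-fold (22.7% against 4.63% of all genes), with a median of -0.73. Kitl, the ligand of Kit, had 3117 and 772 (4.04-fold), Lpl, lipoprotein lipase, had 363 and 116 (3.12-fold), and Timp1 had 436 and 186 (2.34-fold). Col1a2 had 1988 and 1132 (1.76-fold) although Col1a1 was below 100 in both arrays. Twist1, a mesenchymal factor, had 118 and 239 (2.03-fold higher). Whether these signals came from OP9 cells or from the sorted cells cannot be told apart in these samples.

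Of 26 BMP and TGF-beta genes above 100, 6 were at least 2-fold lower and 2 (Bmp2 and Bmper) higher, with a median of -0.46. These are 23.1% and 7.69% of the 26, against 4.63% and 3.22% of all genes. Among the 6 were the targets Id2 with 404 and 120 (3.35-fold), Id1 with 1166 and 484 (2.41-fold) and Id3 with 3142 and 1518 (2.07-fold), the ligand Tgfb2 with 549 and 208 (2.64-fold) and the receptor Tgfbr2 with 3243 and 1491 (2.18-fold). Id1 and Bmp2 thus lay in opposite directions. Tgfb2 has 2 further probe sets, both lower.

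Of 21 immediate early genes, 19 were lower, 5 by at least 2-fold (23.8% against 4.63% of all genes), and the median was -0.77. Ier3 had 951 and 236 (4.03-fold), Ccn2 (connective tissue growth factor) had 3059 and 1103 (2.77-fold) and Fos had 2871 and 1307 (2.20-fold), while Jun had 3102 and 2482 (1.25-fold).

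Receptors for cytokines and genes of antigen presentation were lower as well. Of 12 cytokine receptors above 100, 4 were at least 2-fold lower (33.3% against 4.63% of all genes). None was higher by that much, and the median was -0.63. Osmr, the oncostatin M receptor, had 409.5 and 65.4 (at least 4.10-fold), and Il10rb had 527 and 182 (2.90-fold). Kit, the receptor of stem cell factor, had 1919 and 2032 and its other probe set went the opposite way by a log2 ratio of -0.10. Of 11 interferon and MHC class I genes, B2m had 4563 and 1659 (2.75-fold), H2-D1 had 617 and 172 (3.59-fold) and H2-K1 had 963 and 724 (1.33-fold). Other probe sets ranged from a log2 ratio of -1.94 to -0.49 for H2-D1 and from -1.96 to -0.15 for H2-K1. The contrast between H2-D1 and H2-K1 thus depends on the probe set. The adhesion molecules Icam1 (893 and 127, 7.05-fold) and Madcam1 (941 and 82.7, at least 9.41-fold), which leukocytes bind on vessels, were also among the 20 largest folds.

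Genes that the study assigned to Runx1 binding peaks in population 2 showed no common direction. Of 47 on the array, 25 were above 100, 14 higher and 11 lower, with a median of 0.17 against 0.05 over all genes. Depdc1b, a gene of dividing cells, had 79.0 and 385 (at least 3.85-fold higher), and Zfp46 had 325 and 161 (2.02-fold lower). Each is 4.00% of the 25, against 3.22% of all genes higher and 4.63% lower by 2-fold. The other 8 of the 10 largest ratios were all higher and under 2-fold. They were Lrrc40 with 271 and 528, Gpc6 with 134 and 260.5, Nampt with 454 and 827, Trmt61b with 148 and 264, Tmem68 with 125 and 194, and Cdkn2d, the inhibitor p19, with 416 and 686. Ska1 had 58.4 and 182 (at least 1.82-fold) and Ctnnd2 had 74.0 and 169 (at least 1.69-fold).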

How the data were processed

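Per the labels, total RNA of FACS-sorted cells was labelled with biotin and hybridised to 1 array per population. The authors deposited probe set intensities on a linear scale (signals). The submitters' processing notes name MAS5 and GCOS 1.3, while scaling target and detection calls are not given in the sources used here. No depth exists for arrays, and the number of arrays limits the precision.

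Of 45101 probe sets, 34958 with 1 gene symbol in the array annotation (updated through gene records of GRCm38.p6) were used. A further 932 with several and 9211 without a symbol were left out of the gene counts. The brightest probe set by mean log2 signal over the 4 arrays stood for a gene, a signal above 100 in population 1 or 2 was required, and ratios used signals raised to 100. With 1 array per population no test was made. Counts past 2-fold and 4-fold and list medians are descriptions. The comparison, its members and the 51 gene lists were chosen with earlier results of these data known.

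Named were sort markers, triad factors, globins above 100, Gfi1b, Cldn5, Gata1, the 20 largest folds in each direction (signal of at least 400, other probe sets the same way), up to 6 members of each list by ratio and 3 by signal, and 10 genes at Runx1 peaks. Cbfb, Tek, Egfl7, Erg, Gfi1, Fech, Cdk1, Prc1, Ube2c, Ccnb2, Vcan, Mtm1, Rhoj, Lyve1, Hif1a, Col1a2, Id3, Jun, the genes of the plot by population and those with printed promoter windows were chosen after their values were seen. Promoter windows and gene starts are from RefSeq (GRCm38.p6). Of the study's peak tables only gene names were used, and the second array platform and the sequencing data were not analysed here. Python 3.11.15, numpy 2.4.6, pandas 2.3.3 and matplotlib 3.10.9 were used, and the computation was tested on simulated data. Alternatives were other scalings, floors, minimum signals and choices of probe set.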

Additional observations from a re-analysis of the deposited data

Results flagged for a closer look

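Probe sets without a gene symbol in the annotation used lie outside the counts by gene. Of 1240 such probe sets above 100 in population 1 or 2, 24 were higher and 41 lower in population 2 by 2-fold or more. At 4-fold, 1 was higher (signals of 206 in population 1 and 966 in population 2) and 5 were lower, the largest folds being 5.58 (2278 and 408) and 5.36 (1599 and 298).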

How the results depend on the processing

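No paired analysis was possible because each population has 1 array and no replicate number is shared. No named gene or list at least 2-fold from equality changed sign under any setting. Of 4158 values of 359 named genes under the alternatives, 3609 stayed within 0.182 (log2) of the reported value and 549 moved by more. A change of the minimum signal alone cannot alter a gene's ratio, so the values of those settings are all among the 3609. Signals raised to 50 likewise cannot move genes above 100 in both populations. Scaling on the poly-A controls moved the median over all genes by 0.216, to a value of 0.263, giving 564 and 251 genes at 2-fold and 21 higher at 4-fold. List medians were then 1.674 for mitosis, 1.132 for replication, 1.032 for ribosome biogenesis, 0.382 for haematopoietic factors, -0.702 for endothelial identity, -0.574 for matrix, -0.532 for stromal and -0.544 for immediate early genes. Centring on all probe sets, added later, moved the median by 0.154 and gave 462 higher genes at 2-fold and 14 at 4-fold. The count 4-fold higher was 14 with signals raised to 50, 2 with signals raised to 200, 3 with the mean over probe sets, 2 without shared probe sets and 1 when every probe set had to pass. The count 4-fold lower was 37 with the mean over probe sets and 40 when every probe set had to pass. With every probe set counted, added later, 448 were higher and 666 lower. The stromal median was -0.416 with signals raised to 200 and -0.243 without a minimum signal, and the matrix median was -0.997 with the mean over probe sets. 8 list medians near 0, the largest 0.198 in size, changed sign with the scaling. The cause of these moves was not tested. Signals below 100 limit the folds of dim genes, and saturation near the top of the range was not tested.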

Other observations

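Several genes that were lower in population 2 than in population 1 were higher again in population 3, the Runx1-positive, VE-cadherin-positive cells that had gained CD41. Clec1b had signals of 2514, 616 and 2627 in populations 1, 2 and 3, Cd34, a sialomucin of endothelium and stem cells, had 2950.1, 1367 and 2975, and Sox18 had 1367, 592 and 1309. Apold1, an immediate early gene of endothelium, had 944, 270 and 1072, and Tspan13 had 2921, 1448 and 3035. For antigen presentation the signals were 4563, 1659 and 3895 for B2m. Others did not: Igfbp5 had 1073, 128 and 142, Gja1 had 4672, 1146 and 915, Robo1 had 976, 279 and 247, and Kitl had 3117, 772 and 704. These genes were picked after their values were seen, and both differences share the population 2 array.

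For 4 mitosis genes, also picked after their values were seen, the signals in populations 1, 2, 3 and 4 were 419, 1534, 1378 and 3187 for Ccna2, 111, 485, 516 and 1402 for Aurkb, 836, 2240, 2208 and 5854 for Mki67, and 449.6, 1472, 1128 and 3354 for Mad2l1. Populations 2 and 3 were not compared over the whole list.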
